A study of Homo sapiens with 9 samples.

Results

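Transcripts of neuroectoderm, the precursor of the nervous system, were set against those of mesendoderm, the precursor of mesoderm and endoderm, both made from the human embryonic stem cell line H9 and taken at day 5 of differentiation. The comparison holds 6 of the 9 libraries of the series, 3 of each lineage, and every gene of the deposited table. Neuroectoderm was made with NOGGIN, a secreted BMP antagonist, at 200 nM together with SB431542, an inhibitor of the activin, Nodal and TGF-beta receptors, at 10 µM. Mesendoderm was made with the growth factor BMP4 at 5 ng/ml in the stem cell medium mTeSR1. The other 3 libraries are undifferentiated H9 cells (hESC) at day 0, kept on Matrigel in mTeSR1, and serve here to say on which side of the starting cells each difference lies. All libraries come from 1 cell line. Whether the replicates of a group were grown separately is not stated, so the p-values reflect differences among these samples only and that spread may be technical. The series title asks how primary cilia, autophagy and the antioxidant regulator NRF2 tie the cell cycle to neuroectoderm fate.

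Early embryonic cells choose between these lineages largely through BMP, Nodal, WNT and FGF signals. Blocking BMP and Nodal lets pluripotent cells take a neural course, in which neural plate regulators such as PAX6 and SOX1 appear and E-cadherin gives way to N-cadherin. BMP4 together with the activin-like and FGF signals of stem cell medium induces primitive streak genes such as T (brachyury), MIXL1 and EOMES, and it is also known to induce genes of amnion and trophoblast. In a bulk sample fewer cells of a type and less RNA per cell cannot be told apart.

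The deposited values are RPKM, read counts scaled by transcript length and library size. Levels of single libraries are given in RPKM in the order of replicates 1, 2 and 3, group levels as mean ± SD over 3 libraries, and differences as neuroectoderm minus mesendoderm on the log2(RPKM + 1) scale with their standard error, a scale that understates differences of low genes. A gene was called at a limma Benjamini-Hochberg adjusted p under 0.05. Steps between the lowest hairpin values place the denominators at 37.0 to 70.1 M reads per library. The floor of 3 reads for a 1 kb transcript lies at 0.0428 to 0.0812 RPKM, which counts reads only and no other error. Neuroectoderm replicate 1 stood apart: small RNA genes made up 72.9% of its summed RPKM, against 52.5% to 69.4% in the other 8 libraries, and it lay apart from replicates 2 and 3 on the third principal component, as did mesendoderm replicate 1 and hESC replicate 2. Without neuroectoderm replicate 1, 4104 genes were called higher in neuroectoderm and 3394 in mesendoderm, and without the first replicates of both lineages 3883 and 3271.

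The lineages differed across about as many genes in each direction, and the differences of large size were more often toward mesendoderm. Of 14473 genes tested, 6965 were called (48.1%), 3478 of them higher in neuroectoderm (24.0%) and 3487 higher in mesendoderm (24.1%). Calls of at least 2-fold numbered 998 for neuroectoderm (6.90%) and 1534 for mesendoderm (10.6%), those of at least 4-fold 264 and 496, and those of at least 16-fold 31 and 70. The median difference over all genes was -0.0057. The 3 libraries of each lineage did not overlap for 57.2% of genes, 27.8% with neuroectoderm above and 29.4% with mesendoderm above. The calls of 4984 genes were kept in every one of the 20 alternative fits that tested them, 2490 for neuroectoderm and 2494 for mesendoderm. Some alternatives left out genes of low level or small RNA genes. Counts of gene lists below cover members with a mean of at least 0.5 RPKM over the 9 libraries. Each is to be read against the 24.0% of all genes called toward neuroectoderm and the 24.1% toward mesendoderm. A gene high in a single group can pass that minimum through that group, so these counts describe the lists and test nothing.

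**Figure D1:**
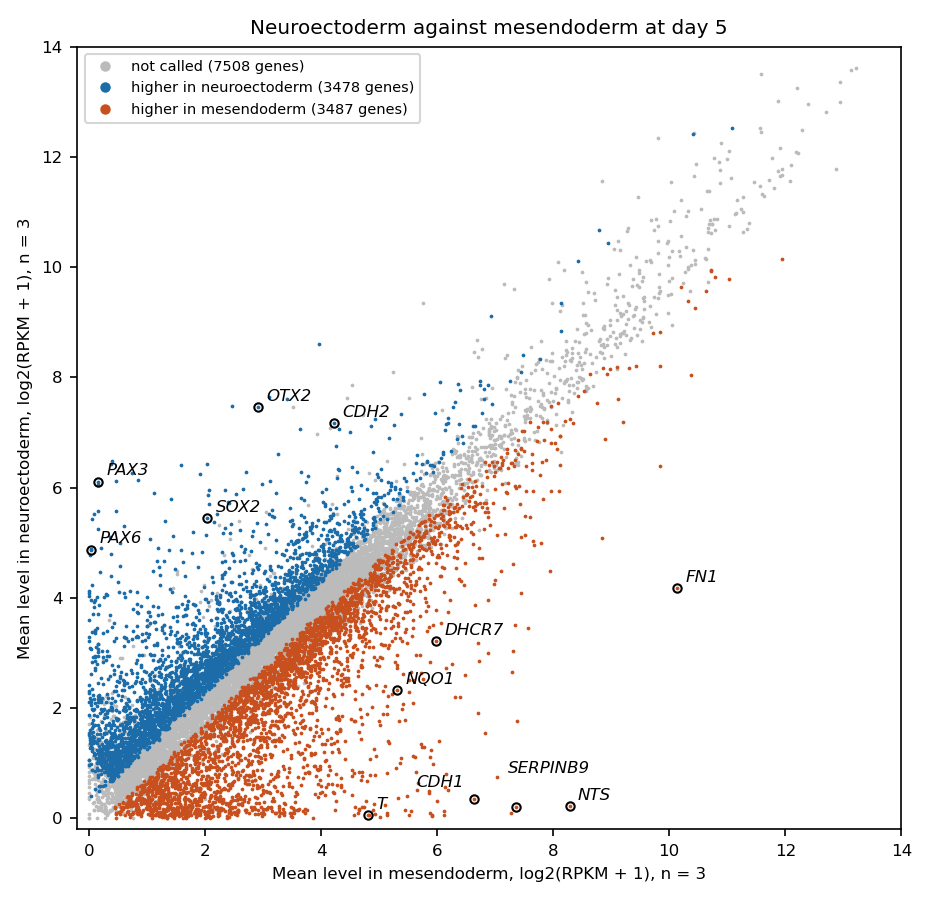
Mean level of each of the 14473 tested genes in mesendoderm (x axis) and in neuroectoderm (y axis), both as log2(RPKM + 1) over 3 libraries. Blue points are the 3478 genes called higher in neuroectoderm, orange points the 3487 called higher in mesendoderm and grey points the rest, and circles mark genes described in the text.

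The markers that open the comparison separated the lineages without overlap. OTX2, a homeodomain factor of the forebrain and midbrain, was at 172, 179.9 and 176 RPKM in neuroectoderm, at 6.06, 7.06 and 6.5 in mesendoderm and at 33.4, 40.1 and 36.6 in hESC. All neuroectoderm libraries lay above the undifferentiated cells and all mesendoderm libraries below them (4.55 ± 0.11, adjusted p = 1.31e-08). NTS, the gene of the secreted peptide neurotensin, stood at 0.33, 0.12 and 0.03 RPKM in neuroectoderm and at 341, 259.5 and 332 in mesendoderm (-8.07 ± 0.15, adjusted p = 4.28e-09), the widest difference in either direction among the genes named by the rule for leading genes. SERPINB9, an inhibitor of granzyme B, stood at 0.18, 0.12 and 0.16 RPKM in neuroectoderm and at 162, 166 and 164 in mesendoderm (-7.16 ± 0.096, adjusted p = 9.07e-10). Both genes had intermediate levels in hESC, 3.46 ± 0.464 and 10.4 ± 1.04 RPKM, so that mesendoderm lay above and neuroectoderm below the starting cells.

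Transcription factors, adhesion proteins and secreted regulators led the genes higher in neuroectoderm. PAX3, a paired box factor of dorsal neural and crest progenitors, was read at 48.3, 82.8 and 73.1 RPKM in neuroectoderm and 0.16, 0.04 and 0.16 in mesendoderm (5.91 ± 0.18, adjusted p = 3.47e-08). CNTN2, an axonal adhesion molecule, was at 41.2, 46.7 and 46 against 0.04, 0.06 and 0.1 RPKM (5.42 ± 0.086, adjusted p = 1.58e-09), and ZFHX4, a large zinc finger homeobox factor, at 45.9, 46.9 and 47.4 against 0.13, 0.13 and 0.09 (5.42 ± 0.073, adjusted p = 9.07e-10). No library of one lineage reached the other in these genes, a condition of the rule for leading genes that 57.2% of all genes met. NOS2, the inducible nitric oxide synthase, had a wide spread in neuroectoderm (37.7, 110.5 and 78.8 RPKM) and still lay far above mesendoderm (0.91, 0.4 and 0.7). The eye field gene MAB21L2 (5.36), the ephrin receptor EPHA7 (5.30), the matrix protein PAPLN (5.12), the iroquois factor IRX1 (5.03) and GREB1L (4.96) followed. IGFBP5, a secreted binding protein of insulin-like growth factors, was the most abundant of these 15 genes (179 ± 4.55 against 4.5 ± 1.34 RPKM, 5.06 ± 0.16). The orphan receptor NR2F1 (4.81), PAX6 (4.81), the non-canonical Notch ligand DLK1 (4.75), the roof plate factor LMX1A (4.73) and the zinc finger factor ZBTB16 (4.69) completed them.

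Secreted proteins, epithelial adhesion and mesoderm regulators led the genes higher in mesendoderm. PLA2G2A, a secreted phospholipase, was at 0.05, 0.06 and 0.1 RPKM in neuroectoderm and 152, 140.0 and 168 in mesendoderm (-7.17 ± 0.11, adjusted p = 1.58e-09). FN1, which codes for the matrix protein fibronectin, was the most abundant of these 15 genes, with 1158, 1049 and 1163 RPKM in mesendoderm and 13.8, 19.3 and 17.8 in neuroectoderm (-5.98 ± 0.14, adjusted p = 1.14e-08). BAMBI, a decoy receptor that is itself a BMP target, was at 129 ± 33.5 against 0.673 ± 0.0757 RPKM (-6.25 ± 0.18). The rule required the lowest mesendoderm library of each to lie above the highest neuroectoderm library. HAND1, a factor of lateral mesoderm and extraembryonic tissue (-6.01), the streak factor MIXL1 (-5.93), the Nodal, BMP and WNT antagonist CER1 (-5.85), the neuropeptide galanin (GAL, -5.82) and HPGD, which breaks down prostaglandins (-5.79), were in the same group. EPAS1, the hypoxia factor HIF-2alpha (-5.64), IGFBP3, another binding protein of insulin-like growth factors (-5.59), and the hyaluronan synthase HAS2 (-5.57) stood beside the epithelial adhesion genes CDH1 (-6.30) and EPCAM (-5.58). The 2 leading IGF-binding proteins thus went in opposite directions, IGFBP5 to neuroectoderm and IGFBP3 to mesendoderm. Mesendoderm replicate 2 was the lowest of its group for HAND1, EPAS1, IGFBP3 and HAS2 and the highest for MIXL1 and GAL.

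**Figure D2:**
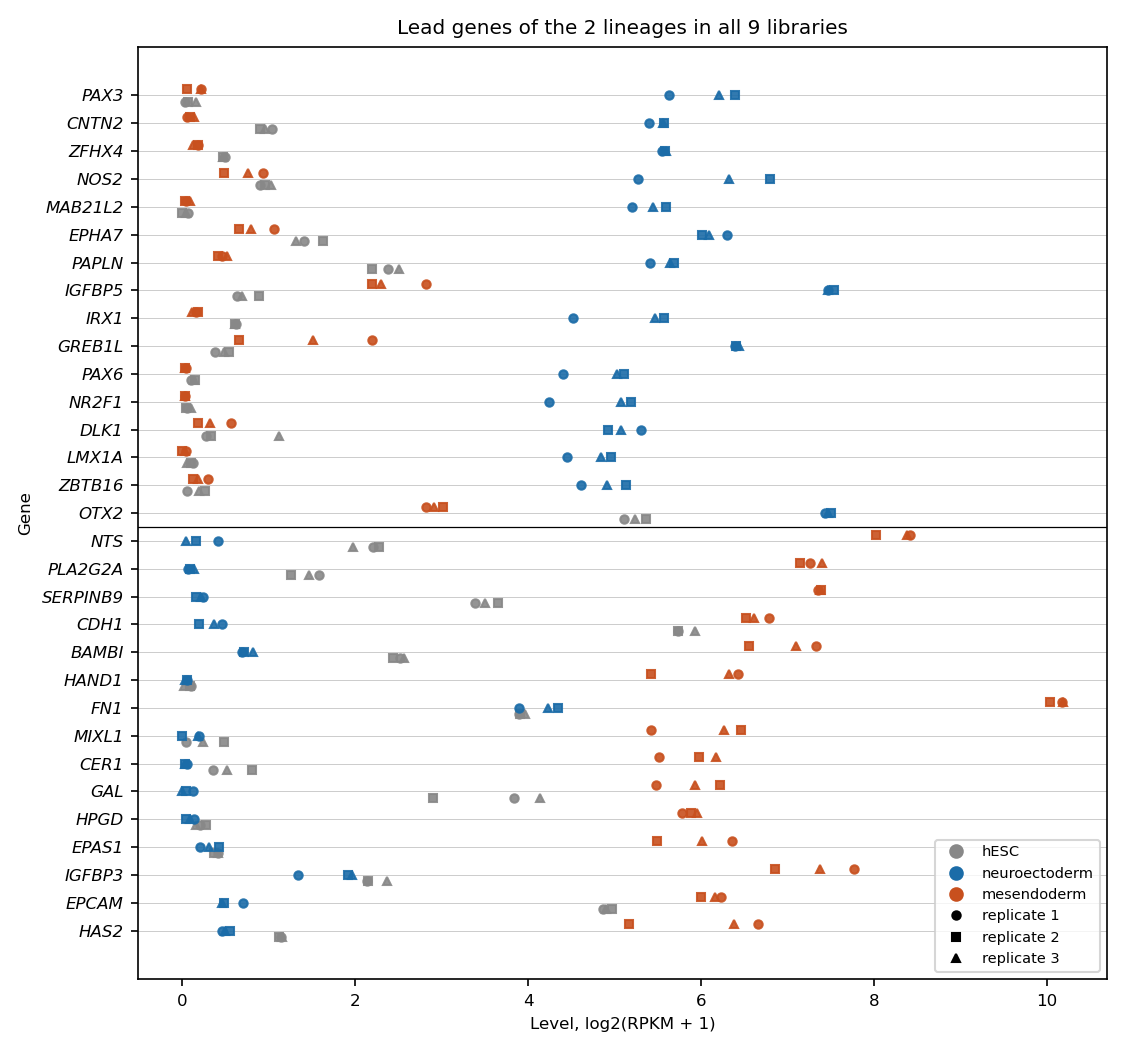
Level of the 15 leading genes of each lineage and of OTX2 in all 9 libraries, as log2(RPKM + 1), with colour for the group and symbol shape for the replicate. Genes above the black line are higher in neuroectoderm and those below it in mesendoderm. For every gene drawn the blue and orange symbols stay apart, as the rule for the leading genes required.

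The undifferentiated cells show where each difference arose. Both lineages are set against the same 3 hESC libraries, so the classes below share them. Genes higher in neuroectoderm were most often gains: 1517 of 3478 were above hESC in neuroectoderm alone, 708 were below hESC in mesendoderm alone, and 382 moved in opposite directions. Genes higher in mesendoderm were more evenly divided, with 863 of 3487 gained in mesendoderm alone, 1105 lost in neuroectoderm alone and 501 moved in opposite directions. Both lineages had gained 222 of the genes higher in neuroectoderm and 199 of those higher in mesendoderm, to unequal degree, and both had lost 136 and 394. For 513 and 425 genes neither lineage was called against hESC. These classes depend on how large a move against hESC must be: when it had to reach 2-fold, gain, loss and opposite moves came to 597, 273 and 30 for neuroectoderm, and loss and opposite moves to 725 and 88 for mesendoderm, while 2495 and 1879 genes fell in no class.

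Among the widest differences opposite moves took a larger place in mesendoderm than in neuroectoderm. Of the 31 genes at least 16-fold higher in neuroectoderm, 19 were gained there alone, 10 had moved in opposite directions and 2 were gained in both. Of the 70 genes at least 16-fold higher in mesendoderm, 38 had moved in opposite directions, 19 were gained in mesendoderm alone, 5 were lost in neuroectoderm alone, 4 were gained in both and 4 lost in both. No test of the difference between these shares was run.

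**Figure D3:**
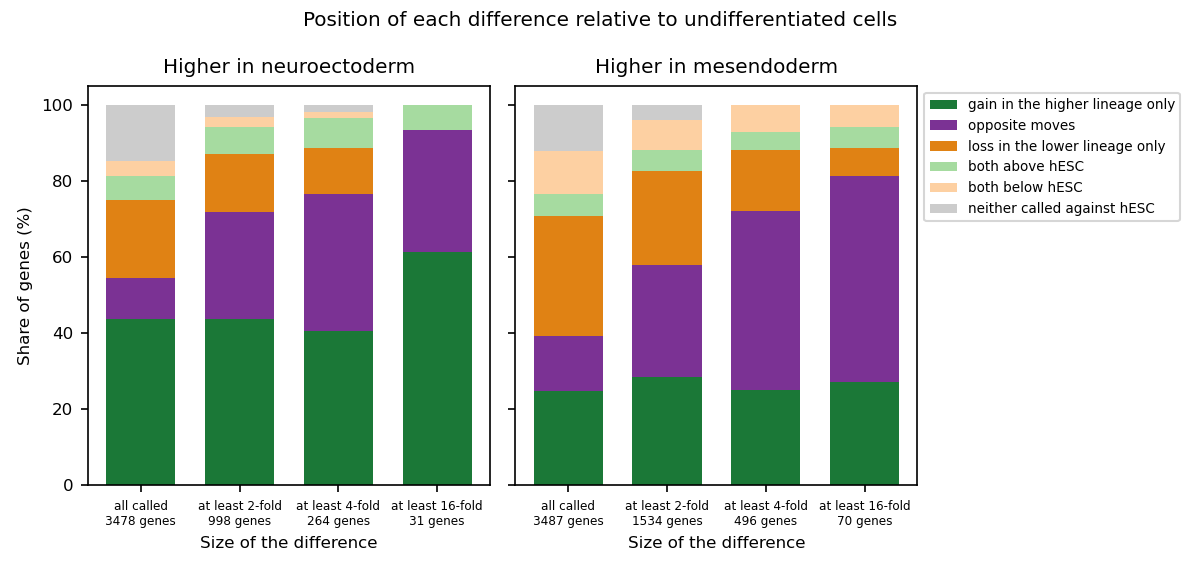
Share of the genes called higher in neuroectoderm (left) and in mesendoderm (right) in each class relative to hESC, in percent of the genes of a bar, for all calls and for differences of at least 2-fold, 4-fold and 16-fold. At 16-fold opposite moves make up 54.3% of 70 genes on the right and 32.3% of 31 genes on the left.

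Named genes illustrate the classes. SOX2, a factor shared by pluripotent and neural cells, differed through loss in mesendoderm: it was at 70.7, 51.3 and 67.8 RPKM in hESC, 33.1, 46.7 and 47.8 in neuroectoderm and 1.25, 5.54 and 2.55 in mesendoderm (3.52 ± 0.35, adjusted p = 3.89e-05). The cytoskeletal regulator DPYSL3 (2.78), the neuronal splicing regulator NOVA2 (2.58) and BTBD17 (2.60) had the same origin, with hESC near neuroectoderm. The converse class, loss in neuroectoderm alone, held AP1M2, a subunit of the sorting machinery of epithelial cells (55.3, 38.6 and 55.1 RPKM in hESC, 0.32, 0.54 and 0.37 in neuroectoderm and 46.2, 65.2 and 60.9 in mesendoderm), the receptor kinase EPHA1 (-4.81), the tight junction gene CLDN7 (-4.35) and ETV4, a factor downstream of FGF (-4.29). Shared gains of unequal size were seen in NR2F2 (0.03 ± 0.0173 RPKM in hESC, 32.5 ± 8.39 in neuroectoderm, 1.07 ± 0.21 in mesendoderm) and, toward mesendoderm, in the apelin receptor APLNR (0.16 ± 0.08, 1.91 ± 0.0781 and 112 ± 65 RPKM), in ANKRD1 (-4.33) and in IGFBP7 (-4.32). Shared losses that went further in mesendoderm included the WNT antagonist SFRP1 (195 ± 6.26 RPKM in hESC, 76.7 ± 9.78 and 11.5 ± 2.33 in the lineages), the receptor regulator LRIG1 (2.28), the neuronal kinesin KIF5A (2.11) and ZNF483 (1.65). Shared losses that went further in neuroectoderm included the epithelial splicing factor ESRP1 (46.1 ± 3.78 RPKM in hESC, 0.18 ± 0.0557 in neuroectoderm and 33.3 ± 4.41 in mesendoderm).

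Regulators of the neural plate and forebrain were higher in neuroectoderm almost throughout. Of 48 list members in the table, 34 passed the minimum, and 27 were higher in neuroectoderm and 1 in mesendoderm (ZFHX3, -0.82), with a median of 2.32. PAX6, a regulator of neural plate and eye, was at 20.1, 33.4 and 31.5 RPKM against 0.03, 0.02 and 0.02 (4.81 ± 0.17, adjusted p = 7.89e-08), and NR2F1 at 18, 35.4 and 32.8 against 0.02, 0.02 and 0.02. Neuroectoderm replicate 1 was the lowest of its group for both and lay far above every mesendoderm library. SOX1, found in the committed neural plate, was at 16.7, 21.9 and 24.6 RPKM against 0.1, 0.12 and 0.2 (4.26 ± 0.16, adjusted p = 1.21e-07), and the midline and cerebellar factor ZIC1 at 3.4, 9.58 and 9.15 against 0, 0.05 and 0.04. Of the 27 genes, 13 were gained in neuroectoderm alone, 6 had moved in opposite directions and 4 were lost in mesendoderm alone. LHX2, a forebrain and eye field factor fixed as a marker, was under the minimum, at 0.04, 0.13 and 0.2 RPKM in neuroectoderm and 0, 0.05 and 0.14 in mesendoderm.

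Genes of the midbrain, dorsal neural tube, hindbrain and HOX clusters were divided. Of 45 members 11 were tested, with 5 higher on each side. Toward neuroectoderm went the anterior and dorsal regulators IRX1 (21.9, 46.6 and 43.1 against 0.12, 0.13 and 0.08 RPKM), LMX1A (20.8, 30.2 and 27.7 against 0.03, 0 and 0.02) and WNT1, a ligand of the midbrain boundary and dorsal midline (8.5, 23.6 and 21.5 against 0.01, 0.01 and 0.08, 4.07 ± 0.31, adjusted p = 6.85e-06). The other members called there were IRX2 and LMX1B. The calls toward mesendoderm included the HOX genes HOXB6, HOXB2 and HOXB9, which pattern the trunk and hindbrain. The HOXB9 call was lost without neuroectoderm replicate 3 (adjusted p = 0.0537) or mesendoderm replicate 3 (0.0643). HOXB6 was at 11.6, 1.57 and 7.51 RPKM in mesendoderm, with replicate 2 far below the others, and at 0.05, 0.03 and 0.01 in neuroectoderm (-2.66 ± 0.47, adjusted p = 0.00152).

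Neural crest, placode and neuron lists gave mixed results. In the crest and placode list 6 of 22 tested genes were higher in neuroectoderm, near the 24.0% of all genes, and 11 in mesendoderm, against 24.1% (median -0.65). PAX3 led the former, and the latter included the placode factor FOXI3 (0.54 ± 0.0529 against 16.3 ± 0.989 RPKM), the surface ectoderm factor TFAP2A (0.62 ± 0.251 against 14.7 ± 0.797) and the homeobox gene DLX5 (0.157 ± 0.122 against 10.1 ± 0.907). Among 17 tested neuron genes 8 were higher in neuroectoderm, against 24.0% of all genes, and 4 in mesendoderm, near the 24.1% of all genes (median 0.40). MAP2, a dendritic microtubule protein, was at 89, 82.9 and 83.5 RPKM in neuroectoderm and 3.9, 2.3 and 3.03 in mesendoderm (4.42 ± 0.15, adjusted p = 5.90e-08). DCX, a microtubule protein of young neurons, stayed at 1.49 ± 0.0493 RPKM in neuroectoderm, near its level in hESC (1.19 ± 0.0321), and at 0.177 ± 0.0611 in mesendoderm. The neuron marker STMN2 was at 3.07 ± 0.384 RPKM in neuroectoderm, 1.64 ± 0.2 in hESC and 0.53 ± 0.262 in mesendoderm. ELAVL3, under the minimum, had the same order (0.823 ± 0.297, 0.287 ± 0.0252 and 0.06 ± 0.0346 RPKM). GAD1, which makes the transmitter GABA, went the other way (0.823 ± 0.313 against 22.1 ± 3.24 RPKM). The summed level of the neuron list was 141 to 179 RPKM in neuroectoderm and 72.6 to 96.9 in mesendoderm, with 6 of 25 members under 0.5 RPKM in all 6 day 5 libraries. Without neuroectoderm replicate 2 or mesendoderm replicate 3, and with the replicate block, 2 neuron genes were called higher in mesendoderm.

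Primitive streak genes were higher in mesendoderm in 24 of 25 tested members, with a median of -3.15. T, the brachyury factor of streak and nascent mesoderm, was at 23.2, 26.8 and 30.8 RPKM in mesendoderm and 0.07, 0.02 and 0.02 in neuroectoderm (-4.74 ± 0.11, adjusted p = 9.24e-09). MIXL1 was at 41.8, 86.8 and 76.2 against 0.14, 0 and 0.13 RPKM, and EOMES, a T-box factor of streak and endoderm, at 20.8, 32 and 29.5 against 0.08, 0.01 and 0.03. All 3 were at or under 0.40 RPKM in hESC, and 15 of the 24 genes were gained in mesendoderm alone. The organiser gene GSC was low on both sides (1.12, 2.86 and 2.82 against 0.64, 0.65 and 0.42 RPKM, -1.01 ± 0.21, adjusted p = 0.00391). WNT3A was the exception, with 2.63 ± 1.3 RPKM in neuroectoderm against 0.863 ± 0.441 (0.92 ± 0.27, adjusted p = 0.0216), and its call was lost without neuroectoderm replicate 2 or 3, without mesendoderm replicate 2 and in both fits on the 6 day 5 libraries alone.

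Lateral and cardiac mesoderm genes pointed the same way in 14 of 20 tested members (median -1.80), with 1 member, LIX1, higher in neuroectoderm (2 without mesendoderm replicate 1 and 3 without neuroectoderm replicate 1). HAND1 was at 85.3, 41.9 and 79.1 RPKM in mesendoderm and 0.04, 0.04 and 0.02 in neuroectoderm (-6.01 ± 0.23, adjusted p = 1.22e-07), and TBX3, a limb and heart field factor, at 40.5, 16.3 and 31.9 against 0.1, 0.03 and 0.02 (-4.77 ± 0.27, adjusted p = 1.06e-06). KDR, the VEGF receptor of early mesoderm and endothelium, was at 83.4 ± 2.89 against 3.61 ± 0.438 RPKM, with 22.2 ± 1.27 in hESC, an opposite move. ISL1, a factor of the second heart field and of amnion, was at 11.9 ± 2.94 against 0.0933 ± 0.0252 RPKM. The endoderm list could be tested for 9 of 22 members only, with 6 higher in mesendoderm. The defining definitive endoderm genes SOX17 (0.28, 0.06 and 0.32 RPKM in mesendoderm) and FOXA2 (0, 0.06 and 0.05) were under the minimum, and CXCR4, a chemokine receptor used to sort endoderm, was higher in neuroectoderm (6.03, 12.2 and 12.2 against 1.23, 0.32 and 0.8 RPKM, 2.62 ± 0.27, adjusted p = 4.96e-05). GATA6, shared by endoderm and mesoderm, was at 4.82 ± 1.98 RPKM in mesendoderm against 0.0667 ± 0.0603. The mesoderm marker PDGFRA lay closer between the lineages, at 4.9, 1.37 and 3.48 RPKM in mesendoderm against 1.27, 1.2 and 1.27. The cells labelled mesendoderm thus carried streak markers and several mesoderm markers, while SOX17 stayed at or under 0.32 RPKM and FOXA2 at or under 0.06.

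Amnion genes were also higher in these cells, in 17 of 19 tested members with a median of -3.29, and NR2F2 went the other way. The summed level of the list was 627 to 931 RPKM in mesendoderm, 81.2 to 105 in neuroectoderm and 49.9 to 54.6 in hESC. Abundant members held much of the mesendoderm sum, among them IGFBP3 (166 ± 51.3 RPKM), SERPINB9 (164 ± 1.79) and BMP4 (99.3 ± 45.7). GABRP, a GABA receptor subunit, was at 47, 24.3 and 30.9 RPKM in mesendoderm and 0.05, 0.03 and 0.02 in neuroectoderm, and the matrix protein POSTN at 43.7, 42.3 and 52 against 0.16, 0.06 and 0.06 (-5.42 ± 0.10, adjusted p = 4.28e-09). Several members, among them HAND1, ISL1, BMP4 and GATA3, are shared with mesoderm or trophoblast. In the trophoblast list 13 of 14 tested genes were higher in mesendoderm (median -2.24), among them KRT7 (26.3 ± 2.79 against 0.24 ± 0.06 RPKM), CDX2 (13.6 ± 6.89 against 0.00667 ± 0.00577) and GATA3 (10.5 ± 1.5 against 0.13 ± 0.0436). Without neuroectoderm replicate 1, 1 trophoblast gene was called toward neuroectoderm. The defining placental genes CGA, GCM1, ELF5 and HSD3B1 were at most 0.35 RPKM in every day 5 library. The part of amnion-like or trophoblast-like transcripts in the lineage difference was not tested. Endothelium and blood genes were tested for 7 of 18 members, with TEK (2.07) and VWF (1.38) higher in neuroectoderm and KDR and RUNX1 (-1.11) in mesendoderm. Of 16 contractile genes 5 were higher in neuroectoderm and 4 in mesendoderm, near the 24.0% and 24.1% of all genes. Smooth muscle actin (ACTA2) was at 37, 78.1 and 67.8 RPKM in neuroectoderm against 4.58, 3.6 and 4.14, and the atrial light chain MYL7 at 0.83 ± 0.315 against 16.9 ± 5.88. Without mesendoderm replicate 2 or 3 the count toward neuroectoderm was 3.

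Pluripotency genes were higher in mesendoderm in 23 of 35 tested members (median -1.18), while 5 were higher in neuroectoderm. Relative to hESC, 14 of the 23 were lost in both lineages, 4 were lost in neuroectoderm alone, 2 were gained in mesendoderm alone and 3 had moved in opposite directions. NANOG, a core factor of pluripotency, was at 22.2, 20.7 and 23.2 RPKM in hESC, 7.68, 18.4 and 10.6 in mesendoderm and 0.18, 0.08 and 0.12 in neuroectoderm (-3.47 ± 0.24, adjusted p = 4.52e-06). Both lineages lay below hESC, and neuroectoderm lay near the floor. The same shared loss was seen in the RNA-binding protein L1TD1 (128 ± 22.6 RPKM in hESC, 59.6 ± 8.15 in mesendoderm, 0.97 ± 0.409 in neuroectoderm), LINC00678 (-4.91) and the Nodal co-receptor TDGF1 (56.3 ± 4.26, 23.7 ± 10.1 and 0.06 ± 0.0458 RPKM). ZFP42 differed through neuroectoderm alone, with 82.6 ± 8.39 RPKM in mesendoderm beside 83.7 ± 2.89 in hESC and 19.3 ± 2.49 in neuroectoderm. The tetraspanin CD9 was at 39.1, 24.4 and 35.1 RPKM in hESC, rose to 53.8, 86.5 and 71.1 in mesendoderm and fell to 0.37, 0.69 and 1.16 in neuroectoderm. SOX2, described above, went the other way, as did LIN28A, LIN28B, USP44 and GPR19, and the LIN28B call was lost without mesendoderm replicate 2 (adjusted p = 0.0807) or 3 (0.0696). NANOG and TDGF1 were highest in mesendoderm replicate 2, the library with the lowest HAND1 and TBX3.

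BMP target genes were higher in mesendoderm in 15 of 16 tested members, with a median of -3.01. Members such as HAND1, GATA3, TBX3 and DLX5 also stand in the mesoderm, amnion, trophoblast or crest lists, and the parts of BMP4, NOGGIN and lineage in these differences cannot be told apart. BAMBI was at 159, 93.3 and 135 RPKM in mesendoderm and 0.62, 0.64 and 0.76 in neuroectoderm (-6.25 ± 0.18, adjusted p = 2.46e-08), and the inhibitory SMAD7 at 27.7, 29.1 and 26.7 against 0.9, 1.44 and 0.95 (-3.79 ± 0.12, adjusted p = 3.72e-08). ID1, an inhibitor of differentiation factors and an immediate BMP target, was at 105, 198 and 169 against 5.9, 33.4 and 31.3 RPKM (-2.96 ± 0.59, adjusted p = 0.00289). The lineages did not overlap in any of the 3 genes, as in 57.2% of all genes. MSX1 was the member not called, at 0.0833 ± 0.0115 RPKM in hESC, 25.9 ± 7.12 in neuroectoderm and 23.5 ± 14.2 in mesendoderm (0.31 ± 0.43). Of 24 ligands, receptors and antagonists 6 were higher in neuroectoderm and 7 in mesendoderm, 54.2% called against 48.1% over all genes, so the count of this list is near the background. BMP4 transcripts were at 99.3 ± 45.7 RPKM in mesendoderm and 13.6 ± 1.97 in neuroectoderm, and BMP2 went the other way (48.3 ± 6.18 in neuroectoderm, 10.0 ± 3.9 in mesendoderm, 2.22 ± 0.26, adjusted p = 1.07e-04). In hESC they were at 1.02 ± 0.356 and 2.11 ± 0.205 RPKM, so each lineage had gained both to unequal degree. The BMP co-receptors RGMA (21.2, 41.1 and 39.1 against 1.17, 2.43 and 1.59 RPKM) and RGMB (1.99) were higher in neuroectoderm.

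Of the Nodal, activin and TGF-beta pathway, 13 of 26 tested genes were higher in mesendoderm, against 24.1% of all genes (median -0.26). Toward neuroectoderm went 6, near the 24.0% of all genes. The ligand NODAL was at 22.4, 73 and 38.8 RPKM in mesendoderm, 0.08, 0.03 and 0.01 in neuroectoderm and 1.11, 1.08 and 1.18 in hESC (-5.30 ± 0.33, adjusted p = 2.24e-06), and the ligand TGFB1 at 16 ± 4.22 against 0.483 ± 0.228. CER1, an antagonist of Nodal, was at 44.6, 62 and 70.9 against 0.04, 0.02 and 0.02 RPKM. The co-receptor TDGF1 went the same way, while the type I receptor gene TGFBR1 (1.61 ± 0.17) and the mediators SMAD3 (0.73 ± 0.13) and SMAD4 (0.66 ± 0.12) were higher in neuroectoderm.

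WNT ligands were divided between the lineages. Of 34 ligands and receptors tested, 18 were higher in neuroectoderm and 10 in mesendoderm (median 0.53). The ligand genes with the widest differences toward neuroectoderm were WNT1, WNT7B (6.84, 11.9 and 10.1 against 0.1, 0.07 and 0.07 RPKM, 3.27 ± 0.16, adjusted p = 5.12e-07), WNT10B (3.25) and WNT2B (3.25). Those with the widest differences toward mesendoderm were WNT8A (23.4, 13.8 and 20.9 against 0.55, 0.25 and 0.64 RPKM, -3.76 ± 0.19, adjusted p = 6.41e-07), WNT6 (10.4 ± 0.678 against 0.07 ± 0.0436), WNT5A (-3.16) and WNT3 (-2.81). Antagonists and targets were split 8 to 7 of 22. TPBG, a surface inhibitor of WNT signals, was at 145, 228 and 224 RPKM in neuroectoderm and 7.78, 7.77 and 7.24 in mesendoderm (4.51 ± 0.18, adjusted p = 1.37e-07), and the secreted antagonist FRZB (3.12) and the membrane antagonist APCDD1 (2.74) were higher there too. Of the common targets, AXIN2 was higher in neuroectoderm (2.39 ± 0.21) and SP5 in mesendoderm (-1.48 ± 0.25).

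FGF ligands and ERK feedback genes were higher in mesendoderm in 16 of 25 tested members, against 5 in neuroectoderm (median -1.48). ETV4 was at 40.4, 41.3 and 39.4 RPKM in mesendoderm and 1.49, 1.04 and 0.88 in neuroectoderm (-4.29 ± 0.14, adjusted p = 6.15e-08), near its hESC level (43.1 ± 6.23) in the former. The feedback inhibitor SPRY4 (34.6 ± 8.6 against 1.65 ± 0.0651 RPKM) and the ERK phosphatase DUSP5 (14 ± 0.729 against 0.697 ± 0.331) showed the same order. FGFR2, a receptor, was the widest exception, at 97.7, 160.3 and 139 RPKM in neuroectoderm and 10.7, 12.9 and 10.8 in mesendoderm (3.39 ± 0.18, adjusted p = 7.66e-07).

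Notch and hedgehog genes leaned to neuroectoderm. Of 28 tested Notch genes 15 were higher in neuroectoderm and 5 in mesendoderm (median 0.62). LFNG, a sugar transferase that tunes Notch receptors, was at 33.4, 69.7 and 54.8 RPKM against 4.44, 3.46 and 4.85 (3.30 ± 0.25, adjusted p = 7.72e-06), and the target genes HES4 (9.5 ± 3.25 against 0.24 ± 0.0964) and HES5 (6.17 ± 1.74 against 0.0333 ± 0.0493) were gained in neuroectoderm alone. The targets HES1 (-2.01 ± 0.23), HEY2 and HEY1, the HES1 antagonist HES6 and the ligand DLL3 (a call lost in 12 of 20 alternatives, 7 of them the omission of 1 library) were those higher in mesendoderm, so targets of the pathway were found on both sides. Of 15 tested hedgehog genes 11 were higher in neuroectoderm (median 1.02). The co-receptors BOC (39.1, 71.5 and 62.7 against 5.63, 3.44 and 5.25 RPKM, 3.33 ± 0.23, adjusted p = 4.49e-06), LRP2 (34.4 ± 1.93 against 3.04 ± 0.74) and CDON (31.2 ± 2.46 against 6.69 ± 0.57) and the transcription factor GLI3 (58.1, 67 and 59.6 against 6.07, 4.58 and 5.22, 3.32 ± 0.12, adjusted p = 8.93e-08) led them. The target gene GLI1 was the member higher in mesendoderm (-1.48 ± 0.12), and PTCH1, both receptor and target, was not called (0.075 ± 0.15). In the retinoic acid list 7 of 12 tested genes were higher in mesendoderm and 1 in neuroectoderm. DHRS3, which reduces retinal, was at 22.1 ± 1.16 RPKM in mesendoderm against 0.703 ± 0.374 (-3.78 ± 0.17, adjusted p = 2.61e-07), with the synthesising enzyme ALDH1A3 (-1.25), while the binding protein CRABP1 was at 58.8, 178 and 147 RPKM in neuroectoderm and 11.8, 32.5 and 21 in mesendoderm (2.47 ± 0.46, adjusted p = 0.00198).

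**Figure D4:**
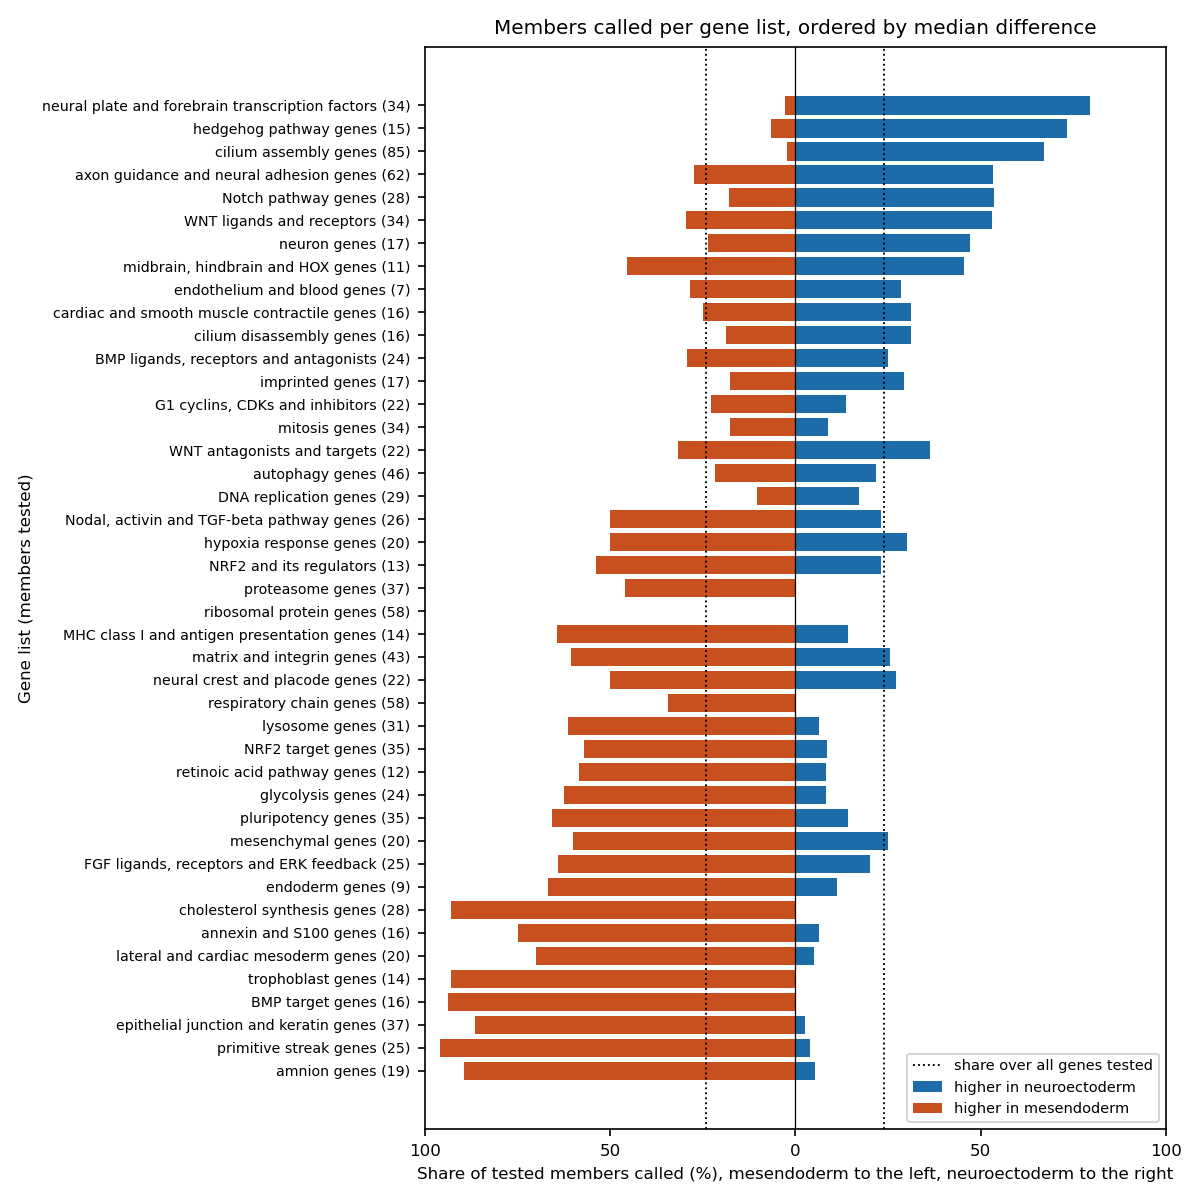
Share of the tested members of each of the 43 gene lists that were called higher in neuroectoderm (blue, to the right) and in mesendoderm (orange, to the left), in percent, with the number of members tested in brackets and the lists ordered by median difference. Dotted lines mark the shares over all genes, 24.0% and 24.1%.

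Epithelial junction and keratin genes were higher in mesendoderm in 32 of 37 tested members, with a median of -3.04. CDH1, which codes for E-cadherin, was at 109, 91 and 96.5 RPKM in mesendoderm, 0.38, 0.14 and 0.29 in neuroectoderm and 52, 52.2 and 59.8 in hESC (-6.30 ± 0.12, adjusted p = 4.66e-09). EPCAM, an epithelial adhesion molecule, was at 73.8, 63.1 and 70.3 RPKM in mesendoderm, 0.63, 0.4 and 0.38 in neuroectoderm and 28.1, 30.4 and 28.9 in hESC (-5.58 ± 0.11, adjusted p = 4.66e-09). In both genes mesendoderm lay above hESC and neuroectoderm below it, and 19 of the 32 genes had such opposite moves, while 8 were lost in neuroectoderm alone. The tight junction gene CLDN4 (43.5 ± 5.83 against 0.32 ± 0.0985 RPKM, -5.07 ± 0.13) belongs to the former class and AP1M2 (-5.36 ± 0.18) to the latter. CXADR was called the other way (0.36 ± 0.12) and lost that call in 11 of 20 alternatives, among them the omission of neuroectoderm replicate 2 or 3, hESC replicate 1 or 3 or any 1 mesendoderm replicate (adjusted p of 0.0528 to 0.111). ZEB1 and ZEB2 are zinc finger factors known to repress E-cadherin and other epithelial genes by binding E-boxes. Both were higher in neuroectoderm, ZEB1 at 4.54, 3.74 and 3.8 against 0.81, 0.17 and 0.46 RPKM (1.78 ± 0.15, adjusted p = 1.59e-05) and ZEB2 at 14, 12.3 and 13.3 against 1.96, 0.28 and 1.57 (2.73 ± 0.27, adjusted p = 3.79e-05), while SNAI1, another repressor of that kind, was higher in mesendoderm (-2.60 ± 0.31).

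The E-box letters CAGGTG were looked for on both strands of the 250 bases before the start site of epithelial genes higher in mesendoderm, with promoter sequence from RefSeq on GRCh38.p14. The table held 13 of the 32 genes, so a share over the list is void, and CDH1 and EPCAM were among those not matched. Of the 13 windows 6 held the letters at least once, as did 17.5% of 27305 promoters of the same length. A match describes the letters and is neither a site of binding nor a cause. The windows of the 4 genes with matches and the widest differences are shown because these members share both the direction and the letters, which stand in capitals on the strand read or as their complement. AP1M2 (chr19:10587313-10587562, minus strand) has 3 matches, RAB25 (chr1:156060910-156061159, plus strand), a small GTPase of epithelial cells, 1, DSP (chr6:7541421-7541670, plus strand), which codes for desmoplakin, 2, and CRB3 (chr19:6464021-6464270, plus strand), an apical polarity gene, 5.
AP1M2: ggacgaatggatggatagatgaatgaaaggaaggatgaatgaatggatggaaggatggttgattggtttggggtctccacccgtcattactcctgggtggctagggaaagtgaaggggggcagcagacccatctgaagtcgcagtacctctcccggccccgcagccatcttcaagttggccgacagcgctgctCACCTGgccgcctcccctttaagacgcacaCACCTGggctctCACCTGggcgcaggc
RAB25: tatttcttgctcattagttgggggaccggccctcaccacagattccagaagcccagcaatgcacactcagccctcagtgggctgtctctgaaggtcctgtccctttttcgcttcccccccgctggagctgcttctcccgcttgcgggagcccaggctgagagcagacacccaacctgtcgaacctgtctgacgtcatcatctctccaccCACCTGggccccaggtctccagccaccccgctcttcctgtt
DSP: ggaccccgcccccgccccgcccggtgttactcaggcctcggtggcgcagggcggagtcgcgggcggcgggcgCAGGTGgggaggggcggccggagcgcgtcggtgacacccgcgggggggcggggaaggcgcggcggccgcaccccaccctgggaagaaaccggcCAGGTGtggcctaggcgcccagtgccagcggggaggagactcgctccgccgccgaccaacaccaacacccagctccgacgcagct
CRB3: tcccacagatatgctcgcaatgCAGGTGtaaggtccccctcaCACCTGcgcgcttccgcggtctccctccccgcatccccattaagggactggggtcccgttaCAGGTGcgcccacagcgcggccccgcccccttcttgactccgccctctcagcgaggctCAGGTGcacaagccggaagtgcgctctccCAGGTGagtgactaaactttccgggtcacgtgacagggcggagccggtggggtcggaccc

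AP1M2 is described above. RAB25 was at 24.5, 24 and 24.2 RPKM in mesendoderm and 0.68, 1.32 and 0.33 in neuroectoderm (-3.87 ± 0.21). DSP, which neuroectoderm kept at a higher level than the others, was at 67.6, 48.5 and 58.1 against 5.96, 6.37 and 5.99 RPKM (-3.04 ± 0.13), and CRB3 at 5.74, 9.96 and 7.86 against 0.15, 0.05 and 0.24 (-2.92 ± 0.21). In none of the 4 genes did the lineages overlap, as in 57.2% of all genes.

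Mesenchymal genes did not follow the epithelial ones as a mirror image. Of 20 tested, 12 were higher in mesendoderm, against 24.1% of all genes (median -1.19). Toward neuroectoderm went 5, near the 24.0% of all genes, and 3 with the replicate block on the 6 day 5 libraries alone. CDH2, which codes for N-cadherin, was at 114, 162 and 155 RPKM in neuroectoderm and 18.4, 15.6 and 19.3 in mesendoderm (2.93 ± 0.15, adjusted p = 7.44e-07). Together with CDH1 this is a difference in which cadherin each lineage carried: neuroectoderm held CDH2 with CDH1 at or under 0.38 RPKM, and mesendoderm held both. Matrix genes of the list, FN1, POSTN and the proteoglycan LUM (9.03 ± 4.95 against 0.06 ± 0.0346 RPKM), were higher in mesendoderm. In the matrix and integrin list 26 of 43 tested genes were higher in mesendoderm and 11 in neuroectoderm, the latter near the 24.0% of all genes (median -0.62). The link protein HAPLN1 (-4.36) and the collagen VI chains COL6A1 (103 ± 6.62 against 8.02 ± 2.25 RPKM) and COL6A2 (-3.68) stood against COL2A1, a collagen of notochord, cartilage and neuroepithelium (33.6, 65.8 and 63.8 against 2, 1.28 and 1.71 RPKM, 4.33 ± 0.26, adjusted p = 1.72e-06).

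Axon guidance and neural adhesion genes leaned to neuroectoderm, with 33 of 62 tested higher there, against 24.0% of all genes (median 0.63). Toward mesendoderm went 17, near the 24.1% of all genes. CNTN2 and EPHA7 (78, 63.7 and 66.9 against 1.09, 0.57 and 0.73 RPKM) led on the neural side. The ephrin EFNA1, a ligand of EPHA receptors (26.8 ± 4.52 against 0.593 ± 0.385 RPKM), and the protocadherin PCDH10 (59.9, 63.4 and 70.8 against 1.34, 1.93 and 1.61) led on the other. Annexin and S100 genes, which code for calcium-dependent membrane-binding proteins, were higher in mesendoderm in 12 of 16 tested members (median -1.73), with S100A11 at 46.8 ± 6.67 against 1.18 ± 0.353 RPKM, S100A10 at 18.4 ± 2.91 against 0.513 ± 0.248 and its partner ANXA2 at 173 ± 11.7 against 16 ± 7.72. S100A4 was called the other way and lost that call in 11 alternatives, with adjusted p of 0.0517 to 0.158, among them the omission of neuroectoderm replicate 1 or 3, mesendoderm replicate 2 or 3 or hESC replicate 1 or 3. Of 14 tested antigen presentation genes 9 were higher in mesendoderm and 2 in neuroectoderm (1 with the replicate block and when any library other than neuroectoderm replicate 1 or mesendoderm replicate 3 was left out). B2M, the common subunit of MHC class I, was at 57.7, 56.2 and 60.2 against 11.3, 21.7 and 21.4 RPKM (-1.68 ± 0.22, adjusted p = 2.49e-04), and the checkpoint ligand VTCN1 at 7.25 ± 2.94 against 0.127 ± 0.0289. The complement regulator CD46 was at 25.4 ± 1.24 against 10.9 ± 0.712 RPKM.

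Cilium assembly genes, the first term of the series title, were higher in neuroectoderm in 57 of 85 tested members and higher in mesendoderm in 2, with a median of 0.65. RFX4, a ciliary transcription factor of the neural tube, was at 10.8, 15.6 and 15.9 RPKM in neuroectoderm and 0.04, 0.08 and 0.05 in mesendoderm (3.82 ± 0.14, adjusted p = 9.66e-08). RFX3, a related factor found in many ciliated cells, was at 19.1, 22.2 and 20.9 against 6.93, 5.18 and 5.98 (1.63 ± 0.12, adjusted p = 5.53e-06), and FOXJ1, the regulator of motile cilia, at 1.41, 4.32 and 4 against 0.34, 0.22 and 0.35 (1.62 ± 0.27, adjusted p = 9.93e-04). Among structural genes the intraflagellar transport gene IFT81 was at 15.9, 12.4 and 14.4 against 3.83, 3.57 and 3.73 RPKM (1.69 ± 0.13, adjusted p = 6.76e-06) and IFT88, often used to disrupt cilia, at 4.22, 3.22 and 2.82 against 2.43, 1.26 and 1.54 (0.70 ± 0.18, adjusted p = 0.0101). No library of one lineage reached the other for these genes, which the naming rule required of all but IFT88. Of the 57 genes 39 were above hESC in neuroectoderm alone and 5 below it in mesendoderm alone. BBS9 and RAB3IP were the 2 members higher in mesendoderm (1 without mesendoderm replicate 2 or 3). Of 16 cilium disassembly genes 5 were higher in neuroectoderm and 3 in mesendoderm, 50% called against 48.1% over all genes, with the centriole cap CEP97 (1.15), the deacetylase HDAC6 (0.86) and MPHOSPH9 (0.64) higher in neuroectoderm. PIFO, a gene linked to Aurora A at the cilium base, was at 13.1, 12.8 and 13.6 RPKM in mesendoderm against 0.76, 1.33 and 1.72 (-2.66 ± 0.14, adjusted p = 9.31e-07).

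Autophagy genes, the second term, showed no lean: 10 of 46 were higher in each lineage, 43.5% called in all against 48.1% over all genes, with a median of -0.062. The ubiquitin-like carrier GABARAPL1 (21.2, 22.5 and 22.5 RPKM in mesendoderm against 4.83, 7.49 and 8.02, -1.59 ± 0.18, adjusted p = 1.13e-04), the phosphoinositide-binding WIPI1 (-1.57) and the lysosomal DRAM1 (-1.39) were higher in mesendoderm, and ATG16L2 (1.03 ± 0.22) in neuroectoderm. SQSTM1, the cargo receptor p62 that is both an autophagy substrate and an NRF2 target, was at 13.4, 15.9 and 15 RPKM in neuroectoderm, 26, 22.1 and 24.9 in mesendoderm and 28.2, 25.9 and 31.4 in hESC (-0.69 ± 0.12, adjusted p = 0.00137). Its lineage difference came from loss in neuroectoderm. Lysosome genes did lean, 19 of 31 to mesendoderm and 2 to neuroectoderm (4 without neuroectoderm replicate 1), with a median of -0.71. The protease gene CTSC was at 83.9 ± 14 RPKM in mesendoderm against 18.7 ± 4.74 (-2.13 ± 0.20), the sterol carrier NPC2 at 95.5 ± 15 against 39.7 ± 10.7, and TFEB, a regulator of lysosome and autophagy genes, at 3.68, 2.23 and 3.86 against 0.47, 0.51 and 0.36 (-1.53 ± 0.17, adjusted p = 8.88e-05). Of the 19 genes 14 were gained in mesendoderm alone.

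NRF2 target genes, the third term, were higher in mesendoderm in 20 of 35 tested members and higher in neuroectoderm in 3 (5 without neuroectoderm replicate 1), with a median of -0.73. NQO1, a quinone reductase and the usual readout of NRF2, was at 4.88, 3.39 and 3.73 RPKM in neuroectoderm, 38.9, 38.9 and 38.4 in mesendoderm and 22.8, 19.1 and 19.7 in hESC (-3.00 ± 0.13, adjusted p = 2.36e-07). The lineages lay on either side of hESC with no overlap of any groups. The epoxide hydrolase EPHX1 (18.2 ± 2.3 against 2.49 ± 0.329 RPKM), the glutathione synthesis subunit GCLM (7.34 ± 0.967 against 1.55 ± 0.369) and transketolase (TKT, 473 ± 91.1 against 118 ± 51.5) had the same order. The cystine transporter SLC7A11 (1.43 ± 0.18), GSTA4 and GSTM2 went the other way, the last with near-identical relatives that can share reads and a call lost without neuroectoderm replicate 2 or 3, mesendoderm replicate 1 or 3 and with the replicate block. HMOX1, which breaks down heme, was at 2.16, 3.27 and 3.94 against 4.3, 5.2 and 4.66 RPKM (-0.49 ± 0.17, adjusted p = 0.0376), and that call was lost in 9 alternatives with adjusted p of 0.0541 to 0.114, among them those without neuroectoderm replicate 1 or 2 or any 1 of the mesendoderm replicates. NFE2L2, the gene of NRF2 itself, was at 7.38, 8.95 and 10.5 against 12, 12.7 and 12.4 RPKM (-0.44 ± 0.13, adjusted p = 0.0187), a call lost without mesendoderm replicate 2 (0.0569) or 3 (0.0576) and with small RNA left out (0.0655). KEAP1, which targets NRF2 for breakdown, was not called (11.8, 27 and 25.5 against 22.9, 29.1 and 24.9 RPKM, -0.32 ± 0.29, adjusted p = 0.376), and neuroectoderm replicate 1 held the lowest of its values. In the list of NRF2 and its regulators 7 of 13 tested genes were higher in mesendoderm and 3 in neuroectoderm (1 with small RNA left out), with a median of -0.44. The NRF2 relative NFE2L3 (-1.99 ± 0.18) and the small MAF partners MAFK (4.66 ± 0.607 in mesendoderm against 1.83 ± 0.369 RPKM) and MAFF (-0.92 ± 0.13) were among the 7.

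Proteasome genes were higher in mesendoderm in 17 of 37, with a median of -0.55, and limma called 0 in the other direction, where 0 also had an unadjusted p under 0.05. They were led by the assembly factor POMP (-1.17 ± 0.14) and the core subunits PSMA3 (-1.16 ± 0.18) and PSMA6 (-1.12 ± 0.24). Without mesendoderm replicate 2 or 3 the count was 10. Ribosomal protein genes, listed as a reference set of short abundant transcripts, had nearly the same median, -0.56, yet limma called 0 of 58, with 2 at an unadjusted p under 0.05, both toward mesendoderm, and 11 called in the replicate block on the 6 day 5 libraries. RPL13A, the most abundant of them, was at 762, 1222 and 1078 RPKM in neuroectoderm and 1057, 1409 and 1375 in mesendoderm, with the lowest value in neuroectoderm replicate 1. The part of this shift in the proteasome difference was not tested. Nor was its part tested in lists of similar median, those of lysosome (-0.71), NRF2 target (-0.73) and respiratory chain genes (-0.68).

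Cell cycle lists had fewer calls than the table as a whole. Of 22 G1 regulators 3 were higher in neuroectoderm and 5 in mesendoderm, of 29 replication genes 5 and 3, and of 34 mitosis genes 3 and 6, that is 36.4%, 27.6% and 26.5% called against 48.1% over all genes. CDKN1B, the CDK inhibitor p27, was at 21.5, 21.7 and 24.2 RPKM in neuroectoderm, 10.3, 9.62 and 11.1 in mesendoderm and 10.8, 9.36 and 10.6 in hESC (1.05 ± 0.10, adjusted p = 3.77e-05), a gain in neuroectoderm alone. CDKN1A, the inhibitor p21, had the reverse order, at 3.12, 4.61 and 5.13 against 25.4, 24.6 and 30.3 RPKM (-2.41 ± 0.15, adjusted p = 2.51e-06). The G1 cyclins CCND2 (72.6 ± 13.7 against 34.5 ± 3.77 RPKM) and CCND3 (9.59 ± 1.11 against 3.19 ± 1.42) were higher in mesendoderm, and CCND1 was not called (25.7, 34.1 and 37.1 against 37.1, 46.1 and 45.9 RPKM, -0.41 ± 0.16, adjusted p = 0.0565), although it passed in 5 alternatives at 0.0284 to 0.0485. Among replication and mitosis genes the histone RNA-binding protein SLBP (-0.68 ± 0.12), cyclin B1 (CCNB1, -0.66 ± 0.15) and the kinase AURKA (-0.48 ± 0.12), which also drives cilium disassembly, were higher in mesendoderm, and CKAP2 (0.84 ± 0.13) and CENPF (0.51 ± 0.12) in neuroectoderm. These small counts moved with single libraries and with scaling. Under quantile normalisation the counts for neuroectoderm and mesendoderm were 4 and 3 for G1 regulators, 8 and 3 for replication genes and 8 and 3 for mitosis genes, so the balance of the G1 and mitosis lists turned around. Replication genes higher in neuroectoderm numbered 9 without neuroectoderm replicate 1, 3 without mesendoderm replicate 2 and with the replicate block, and 2 without neuroectoderm replicate 3 or mesendoderm replicate 1 or 3. Mitosis genes higher in neuroectoderm numbered 6 and 5 without neuroectoderm replicates 1 and 2, and those higher in mesendoderm 3 without neuroectoderm replicate 2 or mesendoderm replicate 1 and with the replicate block, and 2 without mesendoderm replicate 2 or 3.

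**Figure D5:**
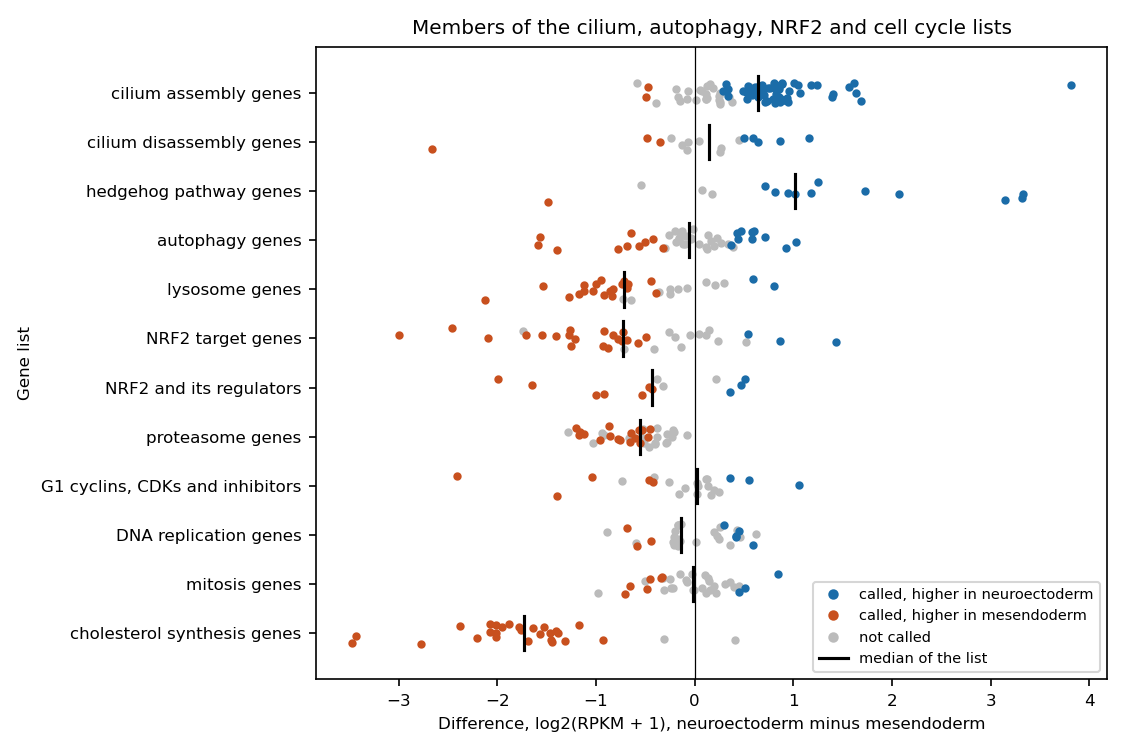
Difference of every tested member of 12 lists, neuroectoderm minus mesendoderm on the log2(RPKM + 1) scale, with blue and orange for genes called higher in neuroectoderm and mesendoderm, grey for genes not called and a black bar for the median of the list. The cilium assembly median lies at 0.65, the NRF2 target median at -0.73 and the autophagy median at -0.062.

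Cholesterol synthesis genes were nearly all on one side, with 26 of 28 higher in mesendoderm and a median of -1.73. DHCR7, which carries out a late reduction step, was at 6.11, 9.63 and 9.11 RPKM in neuroectoderm, 53.3, 66.5 and 66.2 in mesendoderm and 42.3, 40.2 and 43.2 in hESC (-2.78 ± 0.17, adjusted p = 1.88e-06). The squalene synthase FDFT1 was at 24.5, 35.1 and 40.3 RPKM in neuroectoderm and 169, 171 and 182 in mesendoderm (-2.38 ± 0.19, adjusted p = 8.91e-06). The lineages did not overlap in either gene, a condition of the rule that named them. Of the 26 genes 16 were below hESC in neuroectoderm alone and 7 had moved in opposite directions. PMVK and TM7SF2 were the members not called, and 1 member was called toward neuroectoderm without neuroectoderm replicate 1. The base medium of the neuroectoderm cultures is not named in the sources used here, so its part in this difference cannot be told apart from that of lineage.

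Glycolysis genes leaned to mesendoderm in 15 of 24, against 2 in neuroectoderm (median -0.91). The lactate transporter SLC16A3 (29.3, 18.3 and 27.6 RPKM in mesendoderm, 0.51, 0.96 and 0.89 in neuroectoderm, -3.85 ± 0.19, adjusted p = 4.54e-07), ALDOC (-2.85 ± 0.15) and HK1 (-2.02 ± 0.15) led, and the muscle enolase ENO3 was the widest exception (7.19, 18.1 and 19.1 against 2.49, 3.19 and 3.53 RPKM). The 2 members toward neuroectoderm numbered 4 without neuroectoderm replicate 1 and 1 without neuroectoderm replicate 2 or 3 or mesendoderm replicate 1 or 3. Of 58 respiratory chain genes 20 were higher in mesendoderm and 0 in neuroectoderm, with a median of -0.68. This is 34.5%, above the 24.1% of all genes in that direction and under the 48.1% called in either. ATP5G1 (-1.50 ± 0.38) and COX8A (-1.18 ± 0.29) were among them. The count toward mesendoderm was 8 without mesendoderm replicate 2 or 3 and 31 with the replicate block on the 6 day 5 libraries. Of 20 tested hypoxia genes 10 were higher in mesendoderm, led by EPAS1 (81.3, 43.9 and 63.5 RPKM against 0.15, 0.34 and 0.24), the vasodilator peptide ADM (14.5 ± 1.68 against 0.297 ± 0.104) and the kinase PDK1 (41.3 ± 2.26 against 2.95 ± 0.725). The 6 higher in neuroectoderm were led by ANGPTL4 (9.09 ± 3.26 against 0.89 ± 0.104 RPKM). Of 17 tested imprinted genes 5 were higher in neuroectoderm and 3 in mesendoderm, 47.1% called against 48.1% over all genes. DLK1 was at 38.7, 29.4 and 32.6 RPKM in neuroectoderm against 0.48, 0.13 and 0.25 (4.75 ± 0.22, adjusted p = 3.90e-07), followed by L3MBTL1 (1.17), PLAGL1 (1.04) and GRB10 (0.93).

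MicroRNA hairpins were among the genes that separated the lineages, and 6 of them were named, all matched in the RefSeq table on GRCh38.p14. A microRNA guides silencing through its seed, bases 2 to 8, shown here in capitals. The values are those of hairpin transcripts, so the arms cannot be told apart, and reads of a gene that spans a hairpin can be counted in it. The mature sequences are shown because they identify the products that each hairpin could give. No 2 of them share a seed, and the seeds of miR-92b-3p, miR-106a-5p and miR-219a-5p occur in 6, 8 and 3 of the 2370 mature sequences of the table.
miR-1182: gAGGGUCUugggagggaugugac
miR-205-3p: gAUUUCAGuggagugaaguuc
miR-205-5p: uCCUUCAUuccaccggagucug
miR-92b-3p: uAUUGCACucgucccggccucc
miR-92b-5p: aGGGACGGgacgcggugcagug
miR-106a-5p: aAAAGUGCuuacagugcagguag
miR-219a-2-3p: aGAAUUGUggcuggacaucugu
miR-219a-5p: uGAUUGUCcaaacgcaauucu
miR-4648: uGUGGGACugcaaaugggag

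MIR205, known from epithelia, was at 38.3, 38.4 and 43.5 RPKM in mesendoderm, 2.24, 0.13 and 0.66 in neuroectoderm and 8.28, 9.51 and 7.27 in hESC (-4.49 ± 0.32, adjusted p = 4.81e-06). Its host transcript MIR205HG had the same order, 29.1 ± 0.812 against 0.193 ± 0.214 RPKM. MIR1182 was at 76.3, 37.6 and 59.7 against 0.5, 0.73 and 2.25 RPKM (-4.80 ± 0.41, adjusted p = 1.50e-05) and lies within FAM89A, itself at 19.4 ± 7.67 against 0.657 ± 0.258 RPKM. MIR4648 was at 8.73, 16.2 and 13.5 RPKM in neuroectoderm and 1.08, 0.68 and 0.31 in mesendoderm (3.02 ± 0.25, adjusted p = 1.47e-05) and lies within LFNG, which differed by 3.30 ± 0.25. For these 3 hairpins the spanning gene moved the same way, and its part in the hairpin values was not tested.

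MIR219-2, a microRNA known from the nervous system, was at 16.5, 3.69 and 6.26 RPKM in neuroectoderm and listed at 0 in all 3 mesendoderm libraries (adjusted p = 3.48e-04). MIR92B was at 148, 8.22 and 20.5 RPKM in neuroectoderm and 0, 2.26 and 1.3 in mesendoderm (3.98 ± 0.91, adjusted p = 0.00609), and MIR106A, a member of the miR-17 family, at 469, 23.6 and 87.7 against 8.76, 9.07 and 11.1 (3.25 ± 0.86, adjusted p = 0.0126). In both genes neuroectoderm replicate 1 lay several times above replicates 2 and 3, and the lineages did not overlap, as the naming rule required. In hESC MIR92B was at 21, 41.6 and 16.7 RPKM and MIR106A at 77.3, 118 and 61.9, and both were called as lost in mesendoderm alone. Other genes span these hairpins too: MIR219A2HG spans MIR219-2, THBS3-AS1 spans MIR92B and MIR106AHG spans MIR106A. These spanning genes were not among the genes tested under those symbols, and their part in the hairpin values was not tested.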

How the data were processed

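Total RNA that includes small RNA was depleted of ribosomal RNA and made into Ion Torrent libraries, per the labels' protocols. The RPKM values were computed and deposited by the authors in 1 table of 38759 RefSeq transcripts. Per the submitters' processing notes, reads were handled with TopHat, TopHat2 2.0.13 and Bowtie2 on hg19. How reads were counted (the tool, strand, reads with several matches, the denominator) is not given in the sources used here. Antisense pairs, near-identical copies and genes with shared exons are therefore uncertain.

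For each of 21417 symbols the transcript row of highest mean across the 9 libraries was kept. The 14473 with a mean of at least 0.5 RPKM, 735 of them small RNA genes, were analysed as log2(RPKM + 1) with limma 3.58.1 in R 4.3.3, in 1 linear model with group as its term, all 9 libraries and a mean-variance trend. Calls were made at 0.05 after Benjamini-Hochberg adjustment over all genes tested. Count tests were not used, since RPKM values are not counts, and the fit was tested on simulated data. The depth behind the values was read from the step between low hairpin values, of which 96.6% to 98.7% lay within 0.1 of a whole read in each library. A difference was classed by the calls of each lineage against hESC.

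The genes named by rule are, for each lineage, the 15 widest differences among genes called in the same direction in all alternatives that tested them. Their groups did not overlap and the higher group had at least 5 RPKM, leaving out LOC and small RNA symbols. The rule also adds up to 4 such genes of each list at any level (or its most abundant member) and up to 4 of each class against hESC. It further adds 15 genes listed by name and the 6 widest such microRNA hairpins. The rule gave 191 genes, and 53 further genes were named: AXIN2, BBS9, CRB3, CXADR, DCX, DLL3, DSP, EOMES, FAM89A, GABRP, GLI1, GPR19, GSC, GSTA4, GSTM2, HES1, HES6, HEY1, HEY2, HOXB2, HOXB9, ID1, IRX2, LIN28A, LIN28B, LIX1, LMX1B, MIR205HG, MSX1, PMVK, PTCH1, RAB25, RAB3IP, S100A4, SLC7A11, SMAD3, SMAD4, SNAI1, SOX1, SP5, TGFBR1, TM7SF2, USP44, WNT10B, WNT2B, WNT3, WNT3A, WNT5A, ZEB1, ZEB2, ZFHX3, ZFP42 and ZIC1. Of the 53, DCX, EOMES, GABRP, GSC, SOX1, ZFP42 and ZIC1 stood on a fixed list of cell type markers. The others were chosen after their values were seen. That marker list also held LHX2, SOX17, FOXA2, CGA, GCM1, ELF5, HSD3B1, STMN2, ELAVL3 and PDGFRA, which are in neither set. Of 1418 entries in 43 gene lists the table held 1386 (4 under a different symbol), 5 repeated a member under a second name and 27 had no match. A few genes that the rule names are not reported here. The comparison, its genes and its lists were chosen with earlier results of these data known.

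Same-numbered neuroectoderm and mesendoderm libraries deviated together from their group means (correlations of 0.39, 0.25 and 0.23). Unlike-numbered pairs of these lineages ran from -0.37 to 0.24, and same-numbered pairs with hESC from -0.74 to 0.40. Whether the replicate number marks a shared batch is thus not known. A fit with that number as a block was made beside the fit without it. Alternatives covered the pseudocount, the minimum, the libraries fitted, the block, small RNA, quantile normalisation, the trend, the choice of transcript and the omission of each library.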

Additional observations from a re-analysis of the deposited data

How the results depend on the processing

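Of the named genes, NFE2L2 and HMOX1 lost their call and CCND1 gained one in the settings given with them. Most of the 191 were chosen for calls kept in these settings, so their stability was fixed by the rule and tests nothing. Among the 53 further genes DLL3, CXADR, S100A4, WNT3A, GSTM2, HOXB9, LIN28B and BBS9 lost their call in 2 to 12 settings, while PMVK was called in 2. With the replicate block 3096 genes were called higher in neuroectoderm and 3154 in mesendoderm. A block with only the 6 day 5 libraries, chosen after seeing the data, gave 3242 and 3489. The block, where pairing was kept, changed no named gene's call other than those of CCND1, CXADR, S100A4, WNT3A, DLL3 and GSTM2, and moved list counts as given beside them. Leaving out 1 library gave 2771 to 4104 genes for neuroectoderm and 2791 to 3485 for mesendoderm, the lowest of both without mesendoderm replicate 3. Quantile normalisation gave 3909 and 3256, 54.6% for neuroectoderm, and moved the median of all genes to 0.065. The minimum of 2 RPKM gave 2539 and 2729, no minimum 3834 and 3785, and small RNA left out 2955 and 3181.

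Classes against hESC moved more. For genes higher in neuroectoderm, leaving out 1 library gave 464 to 847 lost in mesendoderm alone, 223 to 593 opposite moves, 129 to 433 gained in both, 88 to 154 lost in both and 399 to 797 in no class. For genes higher in mesendoderm it gave 130 to 230 gained in both, 247 to 473 lost in both and 259 to 671 in no class. The extremes came without neuroectoderm replicate 1 or 3, mesendoderm replicate 3 or hESC replicate 1 or 3. With the minimum of 2 RPKM 80 genes higher in neuroectoderm were lost in both, with small RNA left out 123 and 117 were gained in both, and without the first replicates of both lineages 338 higher in neuroectoderm were gained in both and 256 higher in mesendoderm fell in no class. With moves of at least 2-fold required, genes higher in neuroectoderm numbered 597 by gain, 273 by loss, 30 by opposite moves, 56 gained in both, 27 lost in both and 2495 in no class, and those higher in mesendoderm 725 by loss, 88 by opposite moves, 54 gained in both, 91 lost in both and 1879 in no class, since a stricter class admits fewer genes. The cause of the other shifts was not tested. Depth limits genes near the floor of 3 reads.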
